A study of Danio rerio with 12 samples.

Results

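The otpb:GFP experiment at 24 h after fertilization is 1 pair of libraries, 2 of the 12 libraries of the series, made from zebrafish embryos of the line Tg(otpb.A:egfp)zc48. In this line an enhancer of the homeobox gene otpb drives EGFP. Whole embryos were dissociated, and fluorescence-activated sorting separated GFP-positive from GFP-negative cells, and total RNA of each side gave 1 library. Both were chosen by their titles and their deposited table. The series as a whole compared sorted GFP-positive with GFP-negative cells from several lines that mark catecholaminergic neurons, the neurons that make dopamine or noradrenaline. Its only other pair at 24 h and the only other one made with NanoCAGE comes from the enhancer trap line ETvmat2:GFP, again with 1 library for each side of the sort of whole embryos, and serves here for side-by-side values. Per the study's design text, the otpb line at this age shows GFP in ventral diencephalic dopaminergic cells and in part of the preoptic cells, and it labels other populations at later stages. The gene otpb in the table is the endogenous gene, and reads of the GFP transcript were not analysed here.

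Otp is a homeodomain transcription factor that in zebrafish is needed for ventral diencephalic dopaminergic cells and for neuroendocrine cells of the hypothalamus and preoptic area. It acts there beside Sim1 and its partner Arnt2. Differentiated dopaminergic cells make tyrosine hydroxylase (th), the rate-limiting enzyme of dopamine synthesis, aromatic amino acid decarboxylase (ddc), the vesicular monoamine transporter (slc18a2) and the dopamine transporter (slc6a3). NanoCAGE sequences the capped 5′ ends of transcripts from small amounts of RNA, so the read number of a gene does not grow with its length.

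The GFP-positive library held 495373 exon reads and the GFP-negative library 1367216, which is 2.76 times as many. The 4 features with most reads took 43.5% of the reads in the GFP-positive and 56.8% in the GFP-negative library. With 1 library a group there was no replicate and hence no test. Each log2 ratio below is GFP-positive over GFP-negative after scaling by the trimmed mean of M-values (TMM), with a prior count of 2, and is followed by an exact 95% Clopper-Pearson interval. These intervals cover only the counting error of reads treated as independent. Reads without molecular identifiers are not independent molecules, so the intervals are likely too narrow. The direction of the otpb table was taken from the convention of the vmat2 table, and if it were the opposite, every direction below would turn. A minimum of 40 CPM in the larger library (CPM being reads scaled to a common library size) decided which features were considered, which is 19.8 reads in the GFP-positive and 54.7 reads in the GFP-negative library. That left 3225 features, of which 1982 reached this level in both libraries, 929 in the GFP-positive library only and 314 in the GFP-negative library only.

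Among the 3225 features, 123 were higher in GFP-positive cells by 4-fold or more (3.81%) and 49 were lower by as much (1.52%), while a difference of 2-fold or more was seen upward in 474 (14.7%) and downward in 368 (11.4%). Each count of list members below is to be read beside these shares of all considered features. The median log2 ratio was -0.01, and for 1453 features the interval included 0. Of the 4-fold differences 71.5% were thus on the higher side. That share depended on the scaling and on the minimum: it was 88.8% with plain library totals, which moved the median of all features by 0.42, 60.7% where the 40 CPM were counted against TMM-scaled library sizes, and 26.3% with a minimum of 5 CPM and 20 reads. To any of the 26 gene lists drawn up for this tissue belonged 15 of the 123 features on the higher side and 12 of the 49 on the lower side. The share of all considered features in these lists was not counted, so neither number is read as few or many. By reads summed over each list without a minimum, hatching gland genes (log2 ratio 1.55) and notochord genes (1.08) stood highest, and blood vessel genes (-1.5) lowest. In sorted cells a larger share of a cell type and more RNA per cell of that type cannot be told apart.

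**Figure D1:**
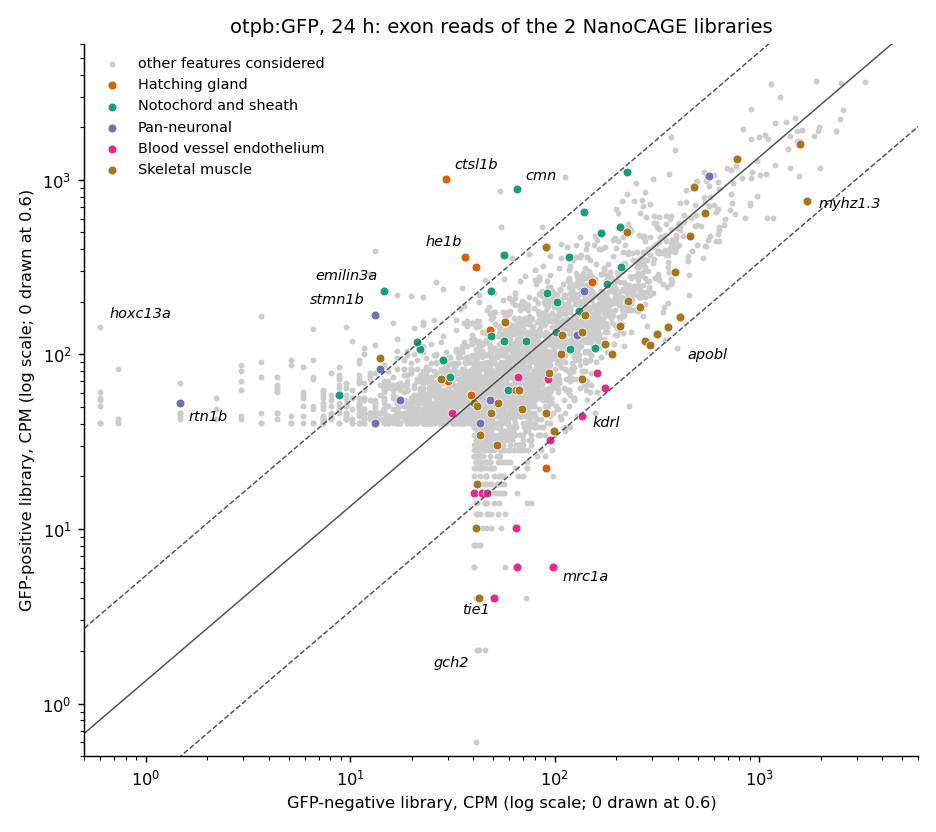
CPM of each considered feature in the GFP-positive library (vertical axis) against the GFP-negative library (horizontal axis), both on log scales, with 5 gene lists in colour. The solid line marks equal TMM-scaled levels and the dashed lines 4-fold differences, and 4 features above the axis limits are not drawn. ctsl1b (1017 against 29.3 CPM) and cmn (890 against 65.1 CPM) lie far above the upper dashed line, and mrc1a (6.06 against 98.0 CPM) lies far below the lower one.

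The regulators that specify the cells named in the design were read first. The list of Otp, Sim1 and other hypothalamic regulators matched 57 features, and 49 of them had a read. Over all of them without a minimum, the reads summed to 483 in the GFP-positive and 657 in the GFP-negative library, a log2 ratio of 0.59 (0.42 to 0.76). Single members weigh heavily in this sum. 7 members were considered, 5 of them through the GFP-positive library alone. Past 2-fold there were 4 on the higher and 0 on the lower side, and the median log2 ratio of the 7 was 1.35. Both depend on the minimum, which takes fewer reads in the GFP-positive library. With at least 5 CPM and 20 reads the median was 0.13, and with no minimum 0.23.

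shha, the secreted Hedgehog ligand of notochord, floor plate and hypothalamus, had 58 reads in GFP-positive and 29 in GFP-negative cells, a log2 ratio of 1.94 (1.36 to 2.73). It is also counted below among the notochord genes, and the part of hatching gland and notochord cells in these values was not tested. arnt2, the partner of Sim1, had 21 reads in GFP-positive and 10 in GFP-negative cells (1.85, 0.95 to 3.35). isl1, a LIM-homeodomain factor of several neuron types, had 32 and 24 reads (1.35, 0.64 to 2.27). The considered members not past 2-fold were pou3f2, eng2b and meis1. The neural POU factor pou3f2 had 22 reads in GFP-positive and 41 in GFP-negative cells, with an interval that included 0. The midbrain-hindbrain gene eng2b had 29 and 82 reads, a log2 ratio of -0.45. meis1, a homeodomain cofactor, had 57 and 177 reads, a log2 ratio of -0.59.

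The remaining regulators had few reads. vax1, a factor of the ventral forebrain, had 14 reads in GFP-positive cells and 1 in GFP-negative cells (3.09, 2.12 to 10.24), below the 40 CPM minimum. nkx2.1b, which marks hypothalamus and ventral telencephalon, had 4 reads and 0. foxa2 had 5 reads and 1 read, nkx2.2a 8 and 3, and rx3 2 and 0. The forebrain factors fezf2 with 9 reads in GFP-positive and 11 in GFP-negative cells and foxg1a with 12 and 12, and lmx1b.1 with 14 and 15, had positive log2 ratios (0.62, 0.89 and 0.82) whose intervals included 0. Lower were the retinal and forebrain factor rx1 with 6 reads in GFP-positive and 36 in GFP-negative cells (-1.37, -3.09 to -0.29) and lhx9 with 1 and 14 (-1.82, -8.18 to -0.06). nkx2.1a had 0 reads in GFP-positive and 8 in GFP-negative cells. The dopaminergic regulator nr4a2a and the gene pitx3, which is also in the retina and lens list, had 0 reads in GFP-positive cells, against 3 and 7 in GFP-negative cells.

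otpb itself (chr5:53469467-53472796, build Zv9) had 5 reads in GFP-positive and 10 in GFP-negative cells. The log2 ratio of 0.02 had an interval from -1.87 to 1.71, so a difference in either direction of up to about this size was not detectable at this depth. Its paralogue otpa had 4 reads in GFP-positive cells and 1 in GFP-negative cells, and both genes together 9 and 11 reads (0.62, -0.71 to 2.15). sim1a had 2 reads in each library.

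Genes of the catecholamine pathway were at the limit of detection, although the sample titles call the GFP-positive cells catecholaminergic neurons. Of 24 matched features of this list 13 had a read. th had 1 read in GFP-positive cells and 0 in GFP-negative cells, and slc18a2 5 reads and 0. ddc, dbh and slc6a3 gave no reads that could be worked out from the deposited difference. The cofactor recycling gene qdprb1 had 5 reads in GFP-positive cells and 0 in GFP-negative cells, mao 2 and 1, and the dopamine receptor gene drd2b 0 and 5. aldh1a2 was lower with 5 reads in GFP-positive and 39 in GFP-negative cells (-1.69, -3.63 to -0.59). Only 25% of its reads in the vmat2 table map to a single place. PTS had 7 and 17 reads, qdpra 1 and 13, and spra 0 and 8, with negative log2 ratios whose intervals included 0. The other members with a read were GCH1 with 3 and 4, pcbd1 with 4 and 5, and comtb with 1 and 0. gch2, the GTP cyclohydrolase of pigment cells and the only considered member, had 1 read in GFP-positive cells against 57 in GFP-negative cells (-3.66, -10.13 to -2.27). Without gch2 the list summed to 34 and 92 reads, with an interval of the log2 ratio from -1.02 to 0.18. The label could therefore not be checked on the enzyme genes at this depth.

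Hypothalamic neuropeptide genes were rarer still. 5 of 30 matched features had a read, 6 reads in all in GFP-positive cells and 14 in GFP-negative cells. pomca, the precursor of melanocortins, had 2 reads and 0, the prohormone convertase gene pcsk2 2 and 2, scg2b 1 and 1, chga 1 and 5, and ghrh 0 and 6.

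Markers of neurons in general were moderately more frequent in GFP-positive cells. The 46 matched features of the pan-neuronal list summed to 1114 reads in the GFP-positive and 1643 in the GFP-negative library, a log2 ratio of 0.47 (0.36 to 0.58). Of the 10 considered members, whose median was 0.76, 5 were past 2-fold on the higher side and 0 on the lower. These same 5 were the ones considered through the GFP-positive library alone, so their count depends on the minimum. With at least 5 CPM and 20 reads the median was 0.45, and with no minimum 0.38. rtn1b, a neuronal reticulon of the endoplasmic reticulum, had 26 reads in GFP-positive cells and 2 in GFP-negative cells (3.57, 2.73 to 7.85). stmn1b, a microtubule regulator of early neurons, had 83 and 18 reads (3.06, 2.49 to 4.06). Only 4.08% of the reads of stmn1b in the vmat2 table map to a single place, so its value is uncertain, and without it the list's sum gave 0.37 (0.26 to 0.49).

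The 3 other members past 2-fold were the thymosin gene tmsb with 41 reads in GFP-positive and 19 in GFP-negative cells, the growth-cone gene gap43 with 27 and 24, and dpysl2b, a collapsin response mediator, with 20 and 18. The early neuronal RNA-binding gene elavl3 had 115 reads in GFP-positive and 189 in GFP-negative cells, with an interval from -0.03 to 0.66. Beta-tubulin tubb5 had 64 and 176 reads (-0.42, -0.86 to -0.01). Among 25 considered genes of neural progenitors and glia, 3 were higher (12%) and 2 lower (8%) by 2-fold or more. Among all considered features these shares were 14.7% and 11.4%. The radial glial lipid carrier fabp7a had 39 reads in GFP-positive and 18 in GFP-negative cells (1.99, 1.31 to 3.04). gfap, the glial intermediate filament, went the other way with 32 and 152 reads (-1.18, -1.81 to -0.66). The summed log2 ratio of that list was -0.08 and turned to 0.36 with plain library totals.

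**Figure D2:**
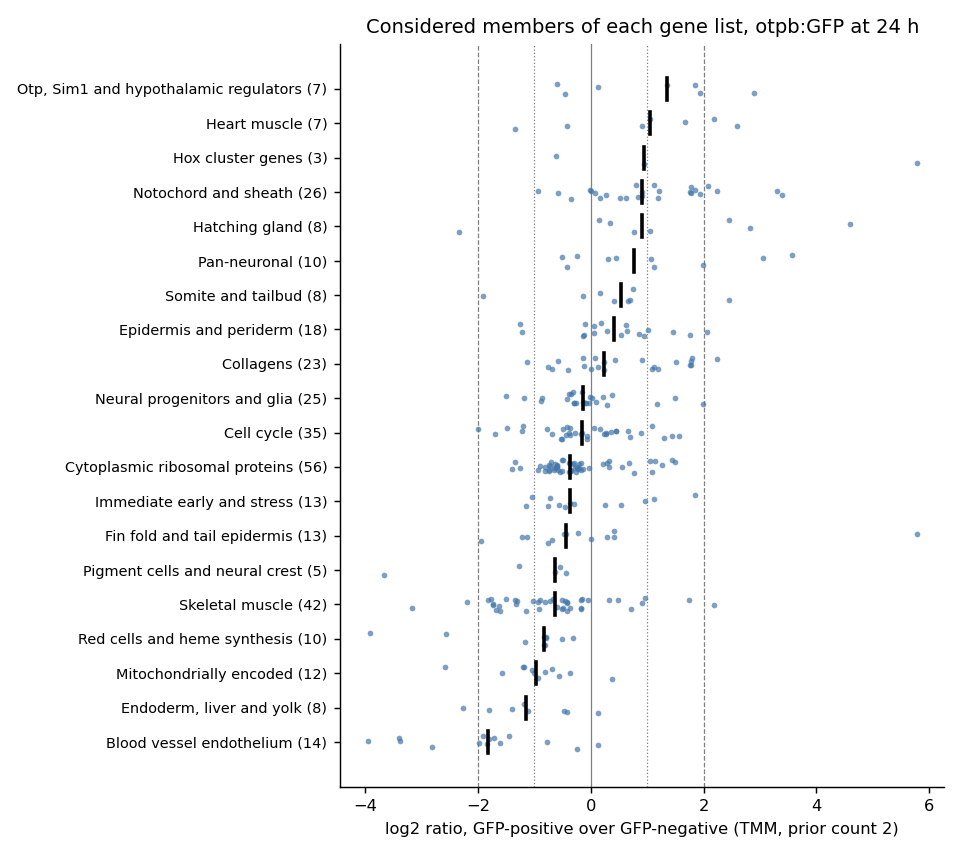
Each point is the log2 ratio of 1 considered member of a gene list, and each black bar the median of that list, with the number of considered members in brackets. Lists with at least 3 considered members are drawn, dotted lines mark 2-fold and dashed lines 4-fold differences. The medians run from 1.35 for the Otp list down to -1.82 for blood vessel endothelium. With a minimum of 5 CPM and 20 reads the median of the Otp list was 0.13. With plain library totals the medians of neural progenitors, cell cycle, stress and ribosomal genes turned positive.

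Among the 15 genes named for the highest ratios, the one with most reads was ctsl1b, a cathepsin L gene of the hatching gland. This transient gland at the front of the embryo secretes the enzymes of hatching. ctsl1b had 504 reads in GFP-positive cells and 40 in GFP-negative cells, a log2 ratio of 4.60 (4.22 to 5.19). The hatching enzyme genes he1b, with 180 and 50 reads, and he1a, with 156 and 56 reads, had log2 ratios of 2.81 and 2.45. xbp1, a transcription factor of secretory cells, had 68 and 66 reads (1.04, 0.56 to 1.59). cap1, an actin-binding gene of the same list, had 11 reads in GFP-positive and 124 in GFP-negative cells (-2.33, -3.50 to -1.57). Of 18 matched members 8 were considered, 4 through the GFP-positive library alone, and past 2-fold were 4 higher and 1 lower members. The median was 0.90, and 0.35 with a minimum of 5 CPM and 20 reads. The list summed to 1180 and 822 reads, a log2 ratio of 1.55 (1.42 to 1.68). Without he1a, he1b and ctsl1b the sums were 340 and 676 reads, and the interval from -0.15 to 0.23 included 0.

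Near-identical copies share reads at these genes. Of the reads counted in the vmat2 pair, 37.5% of those of ctsl1b, 9.5% of those of he1b and 14.4% of those of he1a map to a single place. ctsl1b (chr12:17684090-17686709) lies among similar features, and the neighbourhood described here was chosen after its values were seen. From chr12:17583551 to chr12:18018797 (build Zv9, 435 kb) 12 features had a read and 9 were considered. All 9 had a log2 ratio above 0, and 7 of them were at least 4-fold higher. zgc:174153 had 427 reads in GFP-positive and 74 in GFP-negative cells, zgc:174855 71 and 13, and zgc:174154 59 and 14. Reads over the 12 features made up 0.268% of the GFP-positive and 0.0190% of the GFP-negative library. The sums were 1328 and 260 reads, a log2 ratio of 3.37 (3.19 to 3.58). Only 40.1% of the reads of this stretch in the vmat2 table map to a single place, so how the reads fall among its features is uncertain.

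**Figure D3:**
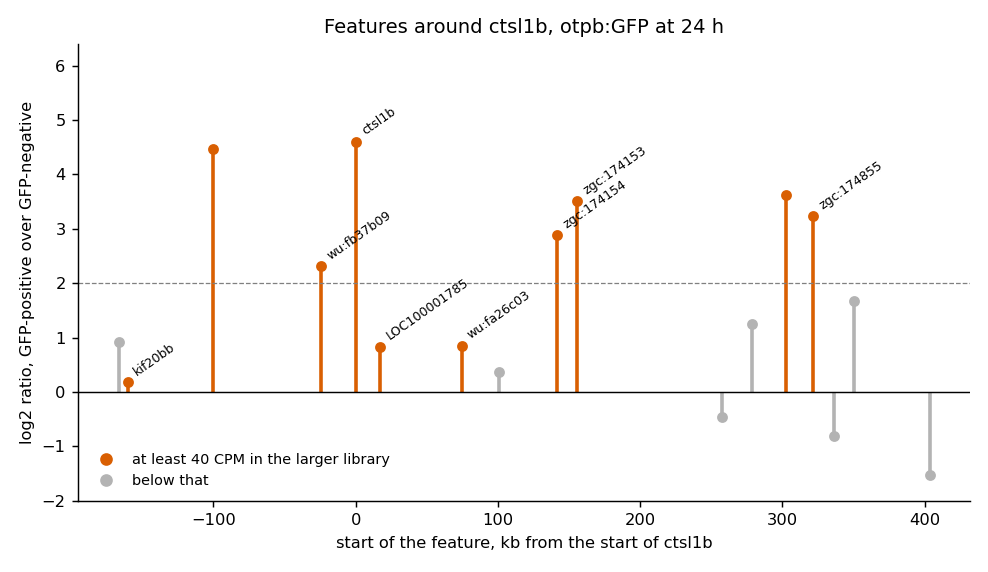
Log2 ratio of GFP-positive over GFP-negative reads for features with a read around ctsl1b, placed by the distance of their start from that of ctsl1b in kb; the dashed line marks a 4-fold difference. The 7 tall bars past the dashed line stand among shorter ones, and kif20bb on the left flank (30 against 54 reads) lies near 0. The 2 unlabelled tall bars are features listed under a protein identifier in place of a gene symbol.

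Genes of the notochord, the rod of vacuolated cells wrapped in a collagen sheath that forms the axis of the embryo, were higher as a group. The list's 48 matched features summed to 3724 reads in the GFP-positive and 3607 in the GFP-negative library, a log2 ratio of 1.08 (1.01 to 1.14). Of the 26 considered members, 12 were past 2-fold on the higher side (46.2%), 4 of them past 4-fold, and 0 on the lower side. Their median was 0.92, and 6 were considered through the GFP-positive library alone. cmn, the zebrafish notochord matrix gene calymmin, had 441 reads in GFP-positive and 89 in GFP-negative cells (3.30, 3.01 to 3.69). emilin3a, which codes for a matrix glycoprotein of the notochord, had 115 and 20 reads (3.39, 2.86 to 4.32). A second feature named EMILIN3 (1 of 2) had 41 reads in GFP-positive cells and 1 in GFP-negative cells. Leaving out cmn, the list's summed log2 ratio was 0.93.

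The sheath collagens followed the same direction. col11a2 had 183 reads in GFP-positive and 77 in GFP-negative cells (2.24, 1.89 to 2.68). The chains of collagen IX were counted as col9a1 with 322 and 189 reads (1.79), col9a3 with 115 and 67 reads (1.77) and col9a2 with 180 and 160 reads (1.19). col2a1a, the main sheath collagen, had 246 and 231 reads (1.11, 0.86 to 1.39), and 35.2% of its reads in the vmat2 table map to a single place. These 5 genes and col11a1a together had 1311 reads in GFP-positive and 1010 in GFP-negative cells, a log2 ratio of 1.41 (1.29 to 1.53). Helpers of matrix assembly were also higher. hapln1a, a link protein of hyaluronan, had 546 and 309 reads (1.84, 1.65 to 2.06), and fkbp10, a collagen chaperone, 29 and 12 reads (2.08, 1.29 to 3.41). plod3, a lysyl hydroxylase of collagens, had 46 and 7 reads (3.32, 2.59 to 5.14), with 2.86% of its reads in the vmat2 table at a single place.

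Collagen genes as a whole, with those of the sheath counted in, were more mixed. Of these 23 considered genes, 9 were higher and 1 lower by 2-fold or more, and the median was 0.24. Collagens outside the sheath were not counted apart. The 1 lower member was the skin and fin-fold collagen col1a1b with 27 reads in GFP-positive and 124 in GFP-negative cells (-1.13, -1.83 to -0.56). Its partners col1a1a and col1a2 had 73 and 242 reads (-0.69) and 89 and 310 reads (-0.76). The basement membrane collagens col4a1 and col4a2 had log2 ratios of 0.13 and 0.00.

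Vertebrate Hox genes of the last paralogue groups pattern the tail. hoxc13a (chr23:36104488-36107430, Zv9) had 71 reads in GFP-positive cells and 0 in GFP-negative cells, which is at least 48.4-fold higher at a floor of 3 reads. In the vmat2 pair it was lower, with 15 reads in GFP-positive and 38 in GFP-negative cells (-1.49, -2.59 to -0.72), below the 40 CPM minimum there. Only 3 of 49 matched Hox features were considered, and 37 had a read. Without a minimum and without hoxc13a, the Hox list summed to 208 reads in GFP-positive and 272 in GFP-negative cells, a log2 ratio of 0.64 (0.38 to 0.91). Groups 9 to 13 without hoxc13a had 107 and 102 reads (1.08, 0.70 to 1.51), and groups 1 to 8 had 101 and 170 reads (0.28, -0.09 to 0.64). Single posterior genes were hoxc12a with 17 and 7 reads, hoxb13a with 7 reads and 1 read, hoxc10a with 10 and 4 reads and hoxb9a with 22 and 22 reads. hoxa10b went the other way with 1 read in GFP-positive cells and 15 in GFP-negative cells. The difference between the posterior and the anterior groups was not tested.

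Of 8 considered genes of somites and tailbud 1 was at least 2-fold higher and 1 lower (12.5% each). Of all considered features 14.7% were higher and 11.4% lower by as much. msgn1, a bHLH factor of tailbud mesoderm, had 46 reads in GFP-positive and 15 in GFP-negative cells (2.45, 1.78 to 3.60). tbx24, the T-box factor of the anterior presomitic mesoderm, had 22 and 176 reads (-1.91, -2.68 to -1.32).

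Several high genes belonged to no list. chek2, a checkpoint kinase of the DNA damage response, had 30 reads in GFP-positive cells and 0 in GFP-negative cells, at least 20.4-fold higher. rgs2, a brake on G-protein signalling, had 27 reads and 0 (at least 18.4-fold). etnk2, an ethanolamine kinase, had 25 and 0 (at least 17.0-fold), and the ventralizing homeobox gene vent 20 and 0 (at least 13.6-fold). All 4 were at 0 in the deeper library and held 20 to 30 reads in the shallower one. atp2a3, a calcium pump of the endoplasmic reticulum, had 109 reads in GFP-positive and 23 in GFP-negative cells (3.13, 2.62 to 3.99). fam46ba had 69 and 9 reads (3.62, 2.96 to 5.16), and scin, an actin-severing gene, 28 and 3 reads (3.40, 2.56 to 6.62). The neddylation gene dcun1d1 had 21 reads and 1 read (3.63, 2.79 to 10.79), and the steroid dehydrogenase gene hsd17b14 23 and 2 reads (3.41, 2.54 to 7.68).

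**Figure D4:**
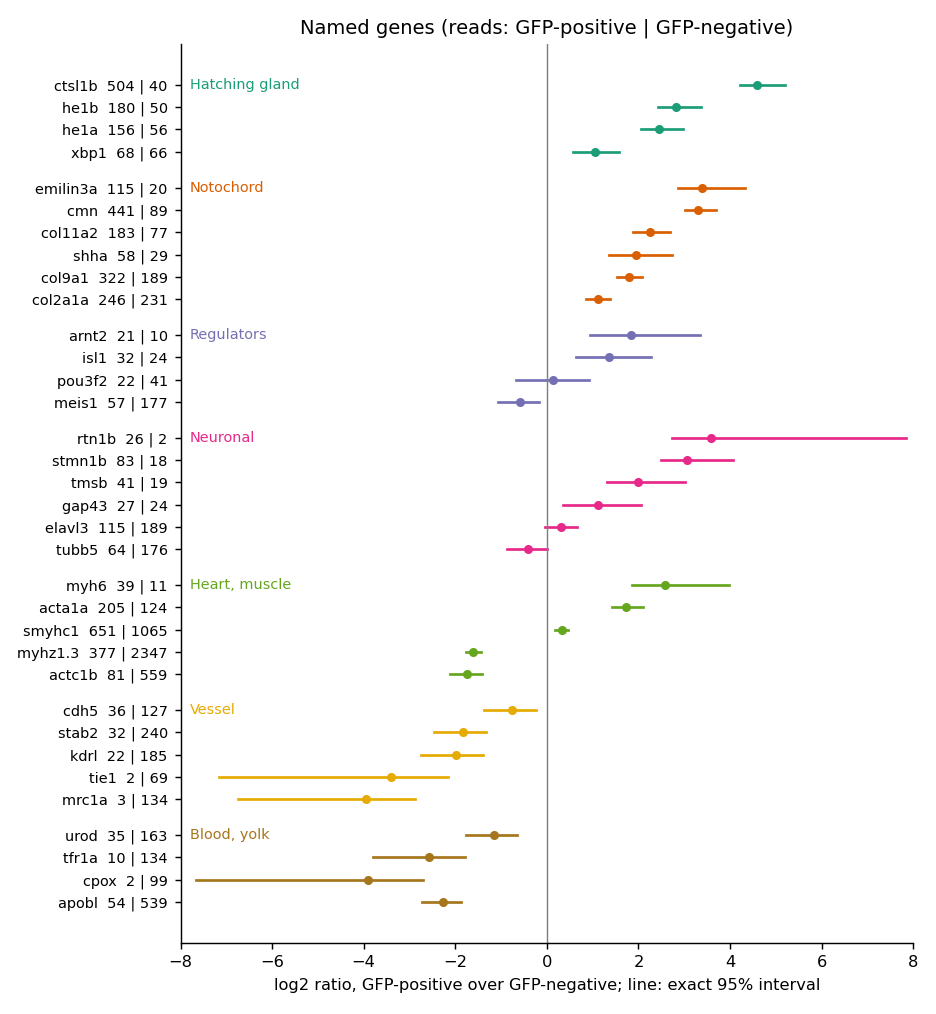
Log2 ratios of named genes by list, with reads in the GFP-positive and then the GFP-negative library beside each name; points are log2 ratios with a prior count of 2 and lines are exact 95% intervals. The 4 hatching gland genes and the 6 notochord genes drawn lie to the right of 0, while the 5 vessel genes and the 4 blood and yolk genes lie to its left. cap1 of the hatching gland list (-2.33) is not drawn.

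Blood vessel endothelium had the lowest summed reads of the 26 lists relative to GFP-negative cells. Of its 14 considered members, 11 were lower by 2-fold or more, 4 of them by 4-fold or more, and 0 were higher by 2-fold. The median was -1.82. 8 of the 14 were considered through the GFP-negative library alone and 1 through the GFP-positive library alone. All 40 matched members, without a minimum, summed to 331 reads in GFP-positive and 1920 in GFP-negative cells, a log2 ratio of -1.5 (-1.68 to -1.34). mrc1a, an endothelial mannose receptor, had 3 reads in GFP-positive and 134 in GFP-negative cells (-3.95, -6.75 to -2.87). stab1l, a scavenger receptor gene, had 3 and 89 reads (-3.38), and its relative stab2 had 32 and 240 reads (-1.83, -2.46 to -1.34). The angiopoietin receptor relative tie1 had 2 and 69 reads (-3.40, -7.15 to -2.17), and the VEGF receptor kdrl 22 and 185 reads (-1.98, -2.75 to -1.40). cdh5, the endothelial cadherin, was closer to balance with 36 and 127 reads (-0.77, -1.36 to -0.24), and ephb4a had 23 and 43 reads with an interval that included 0.

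The vmat2 pair gave the opposite values for these genes. Its vessel list summed to 6167 reads in GFP-positive and 555 in GFP-negative cells, a log2 ratio of 3.19 (3.07 to 3.33), with a median of 3.45 over 28 considered members. Leukocyte genes, all but 1 of them below the minimum in the otpb pair, summed to 106 reads in otpb GFP-positive and 336 in otpb GFP-negative cells (-0.63, -0.96 to -0.31), and to 2598 and 115 reads in the vmat2 pair (4.2, 3.95 to 4.5). Of the 123 features at least 4-fold higher in otpb GFP-positive cells, 52 were considered in the vmat2 pair, and 16 were at least 4-fold higher there too. Those 16 are 30.8% of the 52, against 11.2% of all features considered in the vmat2 pair, whether or not considered in the otpb pair. Among the 16 were ctsl1b, its neighbours wu:fb37b09 and zgc:174153, he1a and he1b. Most reads of each of these in the vmat2 table map to more than a single place, so they are not separate counts. The 16 make up 13% of the otpb list and 3.73% of the 429 features at least 4-fold higher in vmat2 GFP-positive cells. Another 7 of the 52 were at least 2-fold lower in vmat2 GFP-positive cells, against 11.7% of all considered there. Hatching gland genes summed to log2 ratios of 1.55 in the otpb pair and 1.88 in the vmat2 pair. Over the ctsl1b neighbourhood the values were 3.37 and 3.15. Without he1a, he1b and ctsl1b the list gave 0.04 (-0.15 to 0.23) in the otpb pair and 1.45 (1.28 to 1.64) in the vmat2 pair. The sheath collagens had a log2 ratio of 1.41 in the otpb pair and -2.05 in the vmat2 pair, where 162 reads fell in GFP-positive and 560 in GFP-negative cells. Whether the 2 pairs differ was not tested, since each has 1 library a group.

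**Figure D5:**
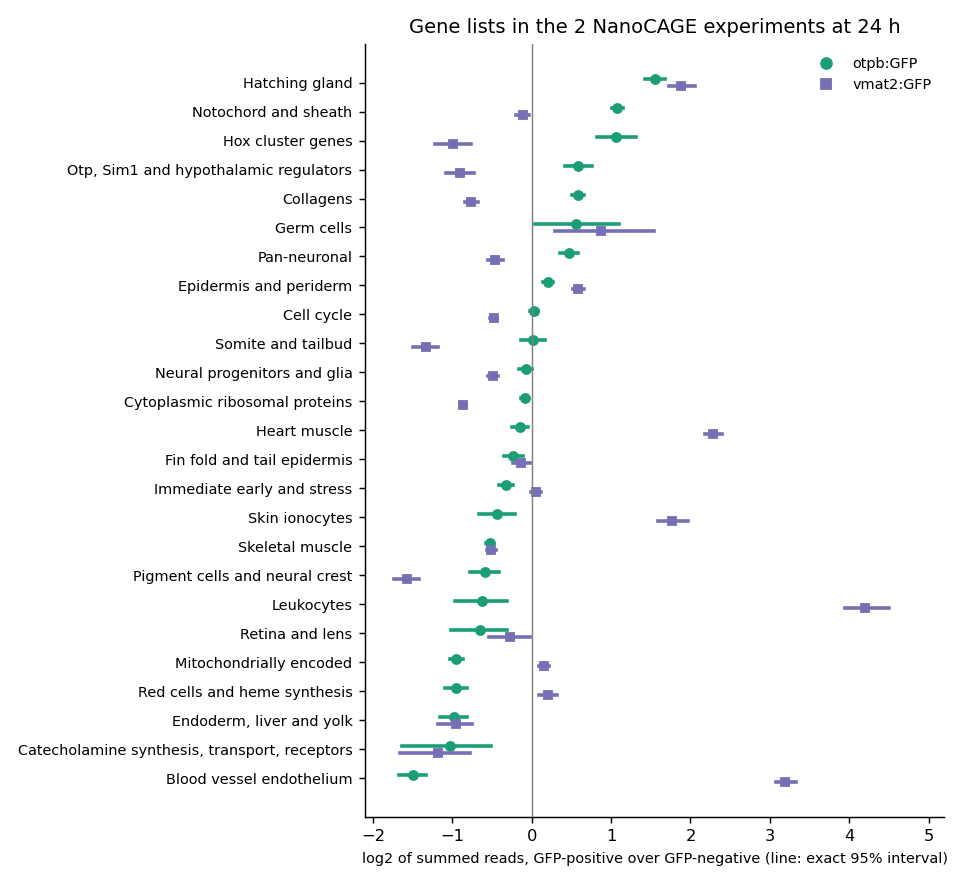
Log2 ratio of the reads summed over all matched members of each list, GFP-positive over GFP-negative, in the otpb:GFP pair (circles) and the vmat2:GFP pair (squares), with exact 95% intervals of counting error; lists with at least 100 reads in the otpb pair are drawn. Hatching gland lies at 1.55 and 1.88, whereas blood vessel endothelium lies at -1.5 and 3.19; with plain library totals the otpb values of neural progenitors, heart, fin fold, stress and ribosomal genes turned positive, and with median ratio scaling those of cell cycle and somite genes turned negative.

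Genes of red cells were lower. Of 10 considered members of the red cell and heme list, 3 were lower (30%) and 0 higher by 2-fold or more. The median was -0.82, and the list's sum of 501 reads in GFP-positive and 1985 in GFP-negative cells gave -0.95 (-1.10 to -0.81). The heme synthesis gene cpox had 2 reads in GFP-positive and 99 in GFP-negative cells (-3.91, -7.66 to -2.71), and urod, also of heme synthesis, 35 and 163 reads (-1.16, -1.76 to -0.65). tfr1a, the transferrin receptor of erythroid cells, had 10 and 134 reads (-2.56, -3.81 to -1.79). The globin gene hbbe3 had 22 and 80 reads (-0.79). Of 8 considered genes of endoderm, liver and yolk, 5 were at least 2-fold lower and 0 higher. apobl, an apolipoprotein B gene of the yolk layer, had 54 and 539 reads (-2.26, -2.72 to -1.88), with 10% of its reads in the vmat2 table at a single place, and apoa1, the main HDL protein, had 9 and 71 reads (-1.81, -3.13 to -0.94).

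Skeletal muscle genes, a list that holds fast and slow genes, were lower as well. Of 42 considered muscle genes 15 were lower (35.7%) and 2 higher (4.76%) by 2-fold or more, and the median was -0.63. Through the GFP-negative library alone 6 were considered, and 2 through the GFP-positive library alone. The list's summed log2 ratio was -0.53 (-0.58 to -0.49), and -0.10 with plain library totals. The fast myosin heavy chain genes myhz1.1, myhz1.2 and myhz1.3 together had 450 reads in GFP-positive and 2895 in GFP-negative cells (-1.65, -1.80 to -1.51), and these near-identical copies share reads. Actin gene actc1b had 81 and 559 reads (-1.74, -2.11 to -1.42) and tropomyosin tpma 56 and 398 reads (-1.77, -2.23 to -1.39). The features of slow myosin heavy chains had 734 and 1171 reads, a log2 ratio of 0.36 (0.22 to 0.49). acta1a, a skeletal actin gene, was at least 2-fold higher with 205 reads in GFP-positive and 124 in GFP-negative cells (1.74, 1.43 to 2.09), and its paralogue acta1b was at least 2-fold lower with 50 and 259 reads (-1.32, -1.81 to -0.90).

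Heart myosin genes were higher in GFP-positive cells, while the heart list as a whole was not. Of 7 considered members of the heart list 4 were higher (57.1%) and 1 lower (14.3%) by 2-fold or more. Through the GFP-positive library alone 4 of the 7 were considered. All matched members summed to 1169 reads in GFP-positive and 2646 in GFP-negative cells, a log2 ratio of -0.15 (-0.25 to -0.05) that turned to 0.29 with plain library totals. The atrial myosin gene myh6 had 39 reads in GFP-positive and 11 in GFP-negative cells (2.59, 1.86 to 3.97), the cardiac light chain gene myl7 51 and 31 reads (1.67, 1.08 to 2.44), and the ventricular myosin gene vmhc 105 and 102 reads (1.05, 0.67 to 1.48). tnnc1a, the troponin C of heart and slow muscle, had 47 and 19 reads (2.19, 1.54 to 3.19). mef2ca, a myogenic transcription factor, had 23 and 124 reads (-1.35, -2.11 to -0.75). In the vmat2 pair vmhc, myh6 and myl7 together had 1861 reads in GFP-positive and 18 in GFP-negative cells, a log2 ratio of 6.28, against 1.45 in the otpb pair.

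Skin genes lay on both sides of 0. Of 18 considered genes of epidermis and periderm 4 were at least 2-fold higher (22.2%) and 2 lower (11.1%). Over all considered features the shares were 14.7% and 11.4%. Through the GFP-positive library alone 6 of the 18 were considered. The list summed to 3183 reads in GFP-positive and 5645 in GFP-negative cells (0.20, 0.14 to 0.27). The keratin gene cyt1 had 39 and 17 reads (2.07, 1.37 to 3.14), with 9.8% of its reads in the vmat2 table at a single place, and the annexin gene anxa1c 28 and 15 reads (1.76, 0.98 to 2.94). tp63, the transcription factor of basal epidermis, had 25 and 126 reads (-1.26, -1.98 to -0.67), and the actin-binding gene pfn1 45 and 217 reads (-1.21, -1.74 to -0.77). Among 13 considered fin-fold genes, 1 was higher (7.69%) and 3 lower (23.1%) by 2-fold or more, and the median was -0.44. The summed log2 ratio of the fin-fold list was -0.23, and 0.20 with plain library totals. The higher member was hoxc13a, given above among the Hox genes. Of the lower members frem2a, a matrix gene of the fin fold, had 8 and 71 reads (-1.95, -3.38 to -1.06).

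Low values outside these lists were found in genes of several functions. The zinc finger gene zcchc24 had 0 reads in GFP-positive and 56 in GFP-negative cells, at least 9.13-fold lower. tbx2a, a T-box factor, had 1 read and 58 reads (-3.68, -10.15 to -2.29), the palmitoyltransferase gene zdhhc5a 3 and 78 reads (-3.19, -5.98 to -2.07), and mfge8b 2 and 57 reads (-3.14, -6.88 to -1.88). taf3, a subunit of the general transcription factor TFIID, was low at a higher level with 25 and 316 reads (-2.57, -3.28 to -2.04). cse1l, the export receptor of importin alpha, had 7 and 105 reads (-2.66, -4.22 to -1.78).

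Housekeeping lists lay nearer to the middle, apart from the mitochondrial genome. Of 12 considered mitochondrially encoded genes 6 were lower and 0 higher by 2-fold or more, and the median was -0.97. mt-co1, a cytochrome oxidase subunit, had 579 reads in GFP-positive and 2718 in GFP-negative cells (-1.20, -1.33 to -1.07). In the vmat2 pair the same list summed to a log2 ratio of 0.15, against -0.95 in the otpb pair. The median of 56 considered ribosomal protein genes was -0.36, and 0.07 with plain library totals. Of these 56 genes 6 were at least 2-fold higher (10.7%) and 3 lower (5.36%). Of 35 considered cell cycle genes 4 were at least 2-fold higher (11.4%) and 5 lower (14.3%). The cell cycle shares are near the 14.7% and 11.4% of all considered features. Among the cell cycle genes the replication factor gene rpa1 had 502 and 414 reads (1.3, 1.12 to 1.5). The replicative helicase gene mcm4 had 24 and 142 reads (-1.48, -2.22 to -0.90). Of 13 considered immediate early and stress genes egr1, an early response factor, had 21 and 10 reads (1.85, 0.95 to 3.35). The part of dissociation, sorting and library depth in any of these values was not tested.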

How the data were processed

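GFP-positive and GFP-negative cells of whole otpb:GFP embryos gave 1 NanoCAGE library each, grouped by sample title. The sheet names place the tables on Zv9; the aligner is not given in the sources used here. Under named libraries, the authors deposited counts of all and of uniquely mapped exon reads, beside RPKM, only for the vmat2 pair, per the file headers. The otpb table gives both libraries the same headers, so 42 columns of library values were tied to no sample and not used. Instead, its difference and fold change between the libraries' RPKM, 2 deposited comparison values recorded as scores, fixed both levels. Exon length, chromosome, start and end were deposited by the authors too.

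Whole reads followed from level and exon length. All recovered values above 0 lay within 0.02 of a whole read (100.0%), and the same steps on the vmat2 table returned the deposited counts in 17237 of 17237 features. Of 32312 features, 16288 had no difference in the otpb table and gave no reads. A count model without replicates has no error term, so reads were only scaled (TMM, edgeR 4.0.16, R 4.3.3; GFP-negative library as the base), with pandas 2.3.3 and scipy 1.17.1 for ratios and intervals. The calculation was tested on simulated data. Named genes were the 15 with a gene symbol in each direction whose interval bound nearest to 0 lay farthest from it, any member of the Otp, catecholamine and neuropeptide lists with a read, and up to 6 considered members past 2-fold in each direction of every other list. Further members outside this rule (elavl3, tubb5, cdh5, ephb4a, hbbe3, acta1b, fkbp10, col1a1a, col1a2, col2a1a, col4a1, col4a2, col9a2 and col11a1a), EMILIN3 (1 of 2), the single Hox genes and the ctsl1b neighbourhood were named after their values were seen. The gene groups and lists were chosen with earlier results of these data known. No sequence is shown. Some results are not reported here.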

Additional observations from a re-analysis of the deposited data

Results flagged for a closer look

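Of the named genes considered in both NanoCAGE pairs, 22 differed at least 2-fold in opposite directions, and 5 gene lists had summed log2 ratios of opposite sign and at least 0.5 in size. In each case the intervals of counting error left out 0 in both pairs. The 22 come from genes that were all past 2-fold in the otpb pair by the way they were chosen. The share over all features considered in both pairs was not counted, so 22 is not read as few or many. With 1 library a group, no difference between the pairs was tested.

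8 genes were higher in otpb GFP-positive cells and lower in vmat2 GFP-positive cells. The notochord gene cmn had log2 ratios of 3.30 in the otpb pair and -3.17 in the vmat2 pair. The collagen gene col9a1 had 1.79 and -1.89, and a feature named col5a3 1.5 and -2.03. Neuronal stmn1b had 3.06 and -2.12, and tmsb 2.00 and -1.18. The remaining genes of this direction were acta1a (1.74 and -2.36), the replication gene rpa2 (1.45 and -1.47) and the ribosomal protein gene rplp1 (1.13 and -1.5). Most reads of stmn1b and col5a3 in the vmat2 table map to more than a single place.

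14 genes had the opposite signs. The vessel genes came first, with log2 ratios for mrc1a of -3.95 in the otpb pair and 4.77 in the vmat2 pair, stab1l -3.38 and 4.07, tie1 -3.40 and 3.23, crip2 -2.81 and 3.63, kdrl -1.98 and 3.88, and stab2 -1.83 and 3.89. zcchc24, with 0 reads in otpb GFP-positive cells, had -4.45 and 3.11, where the otpb value depends on the prior count. The actin-binding genes cap1 and pfn1 had -2.33 and 2.55, and -1.21 and 3.57. The fin-fold gene frem2a had -1.95 and 1.82, the transcription factor gene mafba -1.20 and 1.94, and btg1 -1.03 and 1.90. The mitochondrial genes mt-nd2 and mt-co2 had -1.18 and 1.31, and -1.04 and 1.11.

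Among the lists, the summed log2 ratio of the Otp and hypothalamic regulators was 0.59 in the otpb pair and -0.90 in the vmat2 pair. Hox cluster genes had 1.06 and -0.99, and collagens 0.58 and -0.76. Blood vessel endothelium had -1.5 and 3.19, and leukocytes -0.63 and 4.2.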

How the results depend on the processing

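With plain library totals in place of TMM, 206 features were higher and 26 lower by 4-fold or more, and 840 higher and 176 lower by 2-fold or more. With at least 5 CPM and 20 reads the counts were 123 and 344 past 4-fold and 474 and 1203 past 2-fold. With at least 100 CPM they were 37 and 3, and 156 and 95. With no minimum they were 832 and 826, and 2793 and 3493. A prior count of 5 left 32 features at least 4-fold lower. A minimum of 40 CPM by TMM-scaled library sizes, chosen after seeing the data, gave 99 and 64 past 4-fold. Median ratio scaling, totals without the 4 largest features and a prior count of 0.5 kept all 4 counts within 1.5 times. No named gene of 113 changed sign under any scaling or prior count tried. The choice of genes fixed this outcome, since each was past 2-fold and the scalings moved the median by at most 0.42. Plain totals turned the sign of 4 of 20 list medians and of 6 of 26 list sums, median ratio scaling turned 2 sums, and the minimum of 5 CPM and 20 reads turned 1 median, that of somite and tailbud genes (-0.81). Depth limits every gene with few reads, th, otpb and the neuropeptide genes first. No replicate could be left out, since each group has 1 library. No paired analysis was possible because each group has 1 library.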
